A study of Mus musculus with 6 samples.

Results

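The 113 heavy chain variable (*Ighv*) segments of the mouse immunoglobulin heavy chain locus were followed in tibia RNA of 3 Atrx-cKO mice and 3 control mice. They were the genes that GENCODE M21 types as an immunoglobulin V gene and whose symbol starts with Ighv, 113 of the 55401 genes counted, and they fall into 16 families by sequence likeness. All lie on the minus strand of chromosome 12 of GRCm38, between positions 113578504 and 116000461, a span of 2.42 Mb. Another 70 *Ighv* pseudogenes and 2 segments typed as LV genes were not included. Usage of a segment was its share of all *Ighv* counts of a library. Atrx-cKO mice had the genotype Osterix-Cre; Atrxf/y and control mice Atrxf/y, so the floxed *Atrx* allele was in all 6 mice and the transgene only in the Atrx-cKO mice, and loss of *Atrx* and presence of the transgene cannot be told apart here. The mice were 8-week-old males. Osterix-Cre drives Cre recombinase in preosteoblasts and is silenced by doxycycline, which was given until 3 weeks of age. Each library came from polyadenylated RNA of a whole tibia, so bone, marrow and attached tissue were read together.

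A developing B cell makes its heavy chain by joining 1 V segment to a D and a J segment, and the V segment encodes most of the antigen-binding domain. A V promoter is strongly transcribed once its segment has been joined and brought near the enhancers of the locus, so V reads in bone come largely from B lineage and plasma cells of the marrow. Every B cell clone carries its own joined segment, and the marrow holds many clones of different size. Segments of 1 family resemble each other closely, and in the mouse locus the large *Ighv1* family lies toward the end far from the D and J segments while *Ighv2* and *Ighv5* lie nearest to them. Cre in this design is aimed at cells of the osteoblast lineage, not at B cells.

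The sequences of 8 segments are shown because the largest differences among libraries and between genotypes were read on them, each beside a close relative. Each sequence is the last 300 coding bases of the V exon from the GENCODE M21 transcripts, written 5′ to 3′ on the coding strand, and capitals mark the bases that differ from the partner in a global alignment. *Ighv1-81*, the most used segment, and its nearest relative *Ighv1-85* (chr12:115920279-115920578 and chr12:116000028-116000327) differed in 22 alignment columns.
Ighv1-81: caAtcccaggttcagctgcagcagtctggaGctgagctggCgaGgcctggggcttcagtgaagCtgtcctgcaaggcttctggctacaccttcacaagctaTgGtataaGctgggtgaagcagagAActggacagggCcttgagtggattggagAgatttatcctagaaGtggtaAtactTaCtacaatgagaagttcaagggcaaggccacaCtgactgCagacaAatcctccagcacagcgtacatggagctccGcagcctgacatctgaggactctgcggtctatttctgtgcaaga
Ighv1-85: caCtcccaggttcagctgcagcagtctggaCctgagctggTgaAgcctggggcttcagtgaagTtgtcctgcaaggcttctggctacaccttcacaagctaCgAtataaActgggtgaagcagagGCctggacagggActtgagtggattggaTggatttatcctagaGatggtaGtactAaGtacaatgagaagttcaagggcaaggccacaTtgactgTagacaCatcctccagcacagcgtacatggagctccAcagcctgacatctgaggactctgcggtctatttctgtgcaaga
*Ighv5-9-1*, the segment with the widest spread of length-scaled share among the 10 most used, and its nearest relative *Ighv5-6* (chr12:113736111-113736410 and chr12:113625506-113625805) differed in 17 columns.
Ighv5-9-1: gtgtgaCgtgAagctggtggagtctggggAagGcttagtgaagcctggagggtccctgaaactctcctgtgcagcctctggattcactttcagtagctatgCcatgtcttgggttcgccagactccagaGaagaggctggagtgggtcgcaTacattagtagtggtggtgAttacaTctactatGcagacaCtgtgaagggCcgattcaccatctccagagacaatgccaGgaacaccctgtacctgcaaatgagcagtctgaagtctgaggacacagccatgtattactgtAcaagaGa
Ighv5-6: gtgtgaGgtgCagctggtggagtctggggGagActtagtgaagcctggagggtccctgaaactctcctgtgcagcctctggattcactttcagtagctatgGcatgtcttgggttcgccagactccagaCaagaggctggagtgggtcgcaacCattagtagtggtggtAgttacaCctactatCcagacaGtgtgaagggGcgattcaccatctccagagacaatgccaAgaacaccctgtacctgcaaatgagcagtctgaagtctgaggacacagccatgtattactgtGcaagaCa
*Ighv9-2*, the segment with the largest fitted difference between genotypes, and its nearest relative *Ighv9-1* (chr12:114109001-114109300 and chr12:114093928-114094227) differed in 12 columns.
Ighv9-2: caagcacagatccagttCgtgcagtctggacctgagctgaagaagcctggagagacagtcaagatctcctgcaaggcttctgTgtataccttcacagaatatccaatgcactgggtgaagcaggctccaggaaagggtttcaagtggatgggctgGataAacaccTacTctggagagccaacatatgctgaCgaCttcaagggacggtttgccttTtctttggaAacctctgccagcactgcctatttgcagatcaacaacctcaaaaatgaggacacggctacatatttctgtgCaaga
Ighv9-1: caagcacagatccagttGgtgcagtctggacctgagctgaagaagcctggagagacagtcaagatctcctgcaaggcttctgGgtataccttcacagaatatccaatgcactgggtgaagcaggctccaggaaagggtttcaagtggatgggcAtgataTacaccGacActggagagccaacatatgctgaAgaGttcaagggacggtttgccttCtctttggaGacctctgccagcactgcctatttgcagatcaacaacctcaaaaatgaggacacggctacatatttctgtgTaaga
*Ighv2-4*, which was read in only some of the libraries, and its nearest relative *Ighv2-2* (chr12:113653291-113653590 and chr12:113588267-113588566) differed in 6 columns.
Ighv2-4: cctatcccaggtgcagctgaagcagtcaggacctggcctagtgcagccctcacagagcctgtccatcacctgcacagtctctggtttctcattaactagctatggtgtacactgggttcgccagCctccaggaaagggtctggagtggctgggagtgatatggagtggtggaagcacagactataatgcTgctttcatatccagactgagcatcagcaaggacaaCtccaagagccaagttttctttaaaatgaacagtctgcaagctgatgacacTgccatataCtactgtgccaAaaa
Ighv2-2: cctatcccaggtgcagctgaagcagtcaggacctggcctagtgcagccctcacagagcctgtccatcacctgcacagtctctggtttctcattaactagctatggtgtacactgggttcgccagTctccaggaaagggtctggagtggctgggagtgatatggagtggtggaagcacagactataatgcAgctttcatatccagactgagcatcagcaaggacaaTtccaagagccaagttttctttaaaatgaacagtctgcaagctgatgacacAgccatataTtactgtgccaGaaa
The relatives were 92.8% (*Ighv1-81* and *Ighv1-85*), 94.5% (*Ighv5-9-1* and *Ighv5-6*), 95.4% (*Ighv9-2* and *Ighv9-1*) and 98.03% (*Ighv2-4* and *Ighv2-2*) identical over the whole V exon. Over all 113 segments the nearest other V segment had a median identity of 95.1%, with a lowest value of 74.6%, and 14 segments had a relative at 98% or more. Counts of those 14 segments are uncertain, since reads without a unique alignment were left off the genes by the authors' counting. For 108 of the 113 segments the nearest relative among the segments was of the same family. A joined V segment can also carry somatic mutations and junctional bases, which the counts do not show.

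*Atrx* itself had 153, 166 and 171 CPM (counts scaled to library size by the TMM method) in Atrx-cKO and 174, 166 and 165 CPM in control libraries, with overlap. Counts over the whole gene in whole tibia do not separate the cells or the exon that Cre acts on, so they do not check the genotypes. *Ighv* reads were a small part of each library. The segments held 7243, 4607 and 6621 counts in Atrx-cKO 1, 2 and 3, and 8306, 4884 and 4391 in control 1, 2 and 3. These were 0.00692% to 0.0153% of 50977777 to 70571655 counts on genes. A segment at 0 counts could hold up to 3, which is 0.0361% to 0.0683% of the *Ighv* counts of a library. This floor and the intervals below cover counting error only, since reads were not collapsed to molecules. Usage differed between libraries of the same genotype beyond counting error (chi-square divided by its degrees of freedom, 17.5 to 33.6), and each library was kept as a replicate. The labels number the replicates and do not name the animal behind each, and p-values weigh a difference against the spread between these samples.

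The repertoire read from the tibia was broad in every library. Between 90 and 95 of the 113 segments had at least 1 count in a library, and 66 to 76 had at least 10. Across the libraries, 73 segments were found in all 6, 30 in some and 10 in none. The 10 without a count were *Ighv5-12-4*, *Ighv2-7*, *Ighv7-2*, *Ighv11-1*, *Ighv16-1*, *Ighv6-5*, *Ighv6-7*, *Ighv1-16*, *Ighv1-24* and *Ighv8-13*, spread over 8 families and including the only segment of *Ighv16*. The effective number of segments, the number of equally used segments that would give the same Shannon entropy, was 44.3, 50.9 and 46.8 in Atrx-cKO and 46.4, 45.3 and 48.6 in control libraries. Its means were 47.3 ± 3.30 (SD, n = 3) and 46.7 ± 1.67 (SD, n = 3), and the ranges overlapped. The 10 most used segments of a library held 43.0% to 48.5% of its counts, and 11 to 14 segments were enough to reach 50%.

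*Ighv1-81* led the repertoire and *Ighv5-9-1* came next, compared as shares of counts per exonic kilobase because exonic length ran from 294 to 480 bases. The length-scaled share of *Ighv1-81* was 12.5%, 9.93% and 14.4% in Atrx-cKO and 11.01%, 15.9% and 7.63% in control libraries, a mean of 11.9% over the 6. It was the most counted segment in 5 of the 6 libraries, and the genotypes overlapped. *Ighv3-6*, the leading *Ighv3* segment, had length-scaled shares of 4.42%, 3.98% and 7.33% in Atrx-cKO and 3.60%, 4.98% and 5.02% in control libraries. The remaining 7 of the 10 most used, *Ighv9-3*, *Ighv1-26*, *Ighv1-80*, *Ighv1-53*, *Ighv1-78*, *Ighv8-12* and *Ighv1-64*, had mean length-scaled shares from 2.23% to 3.43%. Of these 7, *Ighv1-53* alone had shares that did not overlap between genotypes, at 1.83%, 1.96% and 1.73% in Atrx-cKO and 2.40%, 2.49% and 4.74% in control libraries. Over all 20636 genes tested, 4.01% were lower in Atrx-cKO without overlap in CPM. In CPM, the measure of that background, the genotypes did overlap for *Ighv1-53*. Its counts were 126, 86 and 110 in Atrx-cKO and 189, 117 and 200 in control libraries.

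**Figure D1:**
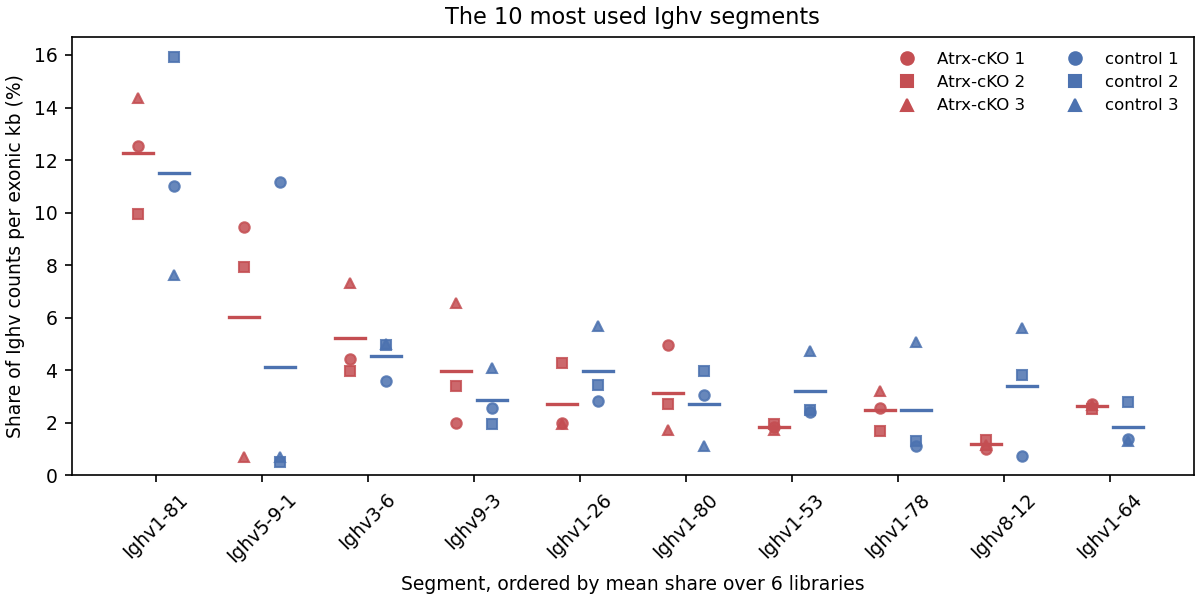
Share of *Ighv* counts per exonic kilobase (percent, vertical axis) of the 10 most used segments, with 1 point per library (red Atrx-cKO, blue control, the shape giving the replicate) and a bar at the mean of 3 libraries. *Ighv1-81* lies between 7.63% and 15.9% in every library, while *Ighv5-9-1* has 3 libraries between 7.92% and 11.2% and 3 between 0.525% and 0.705%.

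*Ighv5-9-1* split the libraries across genotype. It had 763, 409 and 51 counts in Atrx-cKO 1, 2 and 3, and 1037, 29 and 35 counts in control 1, 2 and 3. Its share of all *Ighv* counts was therefore 10.5% (95% Wilson interval 9.85% to 11.3%) in Atrx-cKO 1, 8.88% (8.09% to 9.73%) in Atrx-cKO 2 and 12.5% (11.8% to 13.2%) in control 1. In Atrx-cKO 3, control 2 and control 3 it was 0.770% (0.586% to 1.01%), 0.594% (0.414% to 0.852%) and 0.797% (0.574% to 1.11%). The 3 high libraries came from both genotypes, and in control 1 this segment displaced *Ighv1-81* from the first rank. Its relative *Ighv5-6* did not share the split, with 63, 71 and 41 counts in Atrx-cKO and 182, 38 and 89 in control libraries.

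*Ighv1* held the largest family share in every library, and *Ighv5* varied with this 1 segment. *Ighv1*, with 53 of the segments, held 53.7%, 50.9% and 52.2% of the *Ighv* counts in Atrx-cKO and 46.7%, 56.0% and 53.1% in control libraries, or 52.3% ± 1.43 (SD, n = 3) and 51.9% ± 4.75 (SD, n = 3). *Ighv5*, with 10 segments, held 17.4%, 16.2% and 8.71% in Atrx-cKO and 20.5%, 8.07% and 7.67% in control libraries. Without *Ighv5-9-1* in the family and in the total, *Ighv5* held 7.90% ± 0.217 in Atrx-cKO and 7.86% ± 1.13 in control (SD, n = 3 each). The spread of the family thus lay in *Ighv5-9-1*. *Ighv2* held 6.06% ± 0.218 and 6.26% ± 0.866 (SD, n = 3 each), led by *Ighv2-9* with 90, 110 and 64 counts in Atrx-cKO and 205, 103 and 69 in control libraries. *Ighv3* held 6.82% ± 2.44 and 6.17% ± 1.73 (SD, n = 3 each).

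Of the 16 families, *Ighv8* and *Ighv14* had shares in the 3 Atrx-cKO libraries below those of all 3 controls, and in none were all 3 above. For single genes, the genotypes did not overlap in CPM for 8.31% of the 20636 genes tested, 4.3% with Atrx-cKO higher and 4.01% with Atrx-cKO lower. CPM of a gene and the share of a family are unlike measures. In CPM the genotypes overlapped for *Ighv14* but not for *Ighv8*. *Ighv8* had 2.76%, 2.32% and 3.08% in Atrx-cKO and 3.46%, 4.98% and 6.92% in control libraries, or 2.72% ± 0.381 and 5.12% ± 1.74 (SD, n = 3 each). Within it *Ighv8-12* carried most of the difference in means, at -2.17 percentage points of -2.40 for the family. Its shares were 0.980%, 1.32% and 1.15% in Atrx-cKO and 0.698%, 3.75% and 5.51% in control libraries, so control 1 lay below every Atrx-cKO library. In control 1 the family share came mainly from *Ighv8-8*, at 2.65%, the highest share of that segment in any library. The separation of the family thus did not rest on *Ighv8-12* alone. *Ighv14* had 4.39%, 2.32% and 3.52% in Atrx-cKO and 4.83%, 5.59% and 5.97% in control libraries, or 3.41% ± 1.04 and 5.46% ± 0.580 (SD, n = 3 each). Its difference was carried by *Ighv14-3*, whose share was 0.787%, 0.998% and 0.906% in Atrx-cKO and 1.14%, 2.35% and 5.01% in control libraries, a mean difference of -1.94 percentage points of -2.05 for the family. The smallest p that an exact permutation test can give for 3 libraries per genotype is 0.1, and the family shares were given no test. The family *Ighv9* leaned the other way in its means, 5.38% ± 2.68 and 3.88% ± 0.745 (SD, n = 3 each), but the genotypes overlapped. *Ighv6* had 6.01% in Atrx-cKO 2 and 1.71% to 3.17% in the other libraries. *Ighv7* and *Ighv10* held between 1.16% and 4.49% of a library, and *Ighv4*, *Ighv11*, *Ighv12*, *Ighv13* and *Ighv15* stayed at 0.770% or less.

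**Figure D2:**
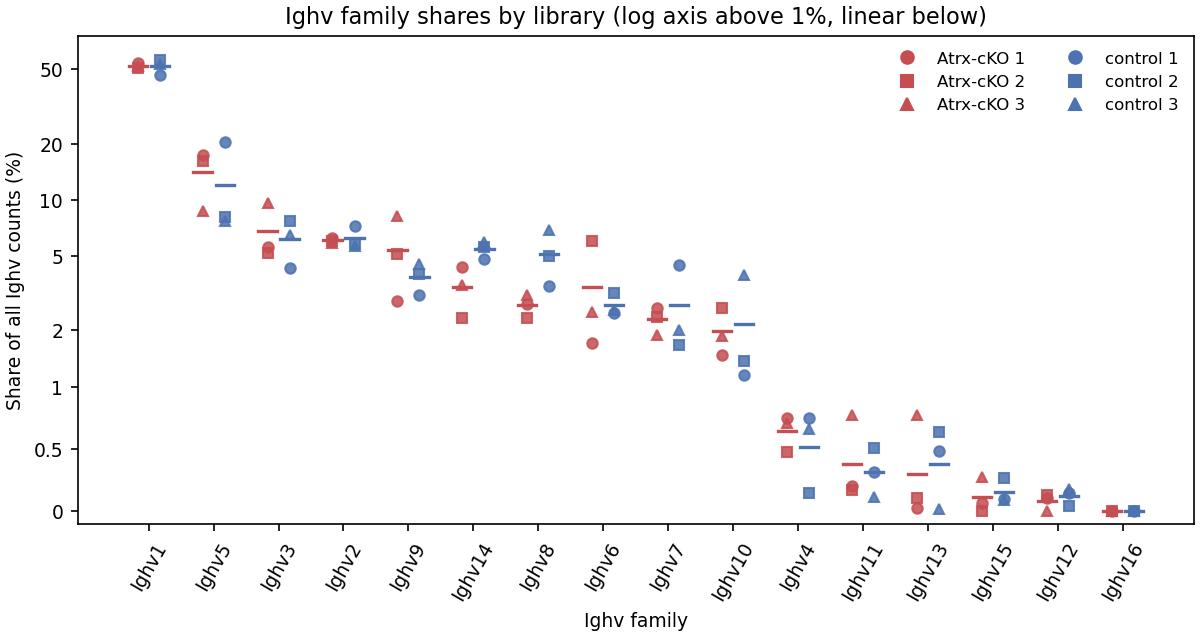
Share of all *Ighv* counts (percent, vertical axis, log above 1% and linear below) of each of the 16 families, with 1 point per library (red Atrx-cKO, blue control) and a bar at the mean of 3 libraries. *Ighv1* stays between 46.7% and 56.0%, *Ighv5* spans 7.67% to 20.5%, and the Atrx-cKO points of *Ighv8* and *Ighv14* lie below the control points.

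Usage did not fall off with distance from the D and J segments. The segments were ordered along the locus and divided into 38 nearest the D and J end, 38 in the middle and 37 farthest from it. The nearest group held 35.1%, 32.1% and 30.4% of the counts in Atrx-cKO and 41.6%, 27.0% and 27.8% in control libraries. The farthest group, which ends at *Ighv1-85* and holds *Ighv1-81*, had 39.2%, 37.1% and 39.9% in Atrx-cKO and 34.3%, 47.2% and 45.1% in control libraries. The middle group had 25.7%, 30.8% and 29.7% in Atrx-cKO and 24.1%, 25.8% and 27.1% in control libraries. In each group the genotypes overlapped, and the median segment of a group had a mean share of 0.530%, 0.430% and 0.620% from nearest to farthest. When *Ighv5-9-1* was left out, a choice made after the data were seen, the middle group held 28.7%, 33.8% and 29.9% in Atrx-cKO and 27.5%, 26.0% and 27.3% in control libraries, with no overlap.

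**Figure D3:**
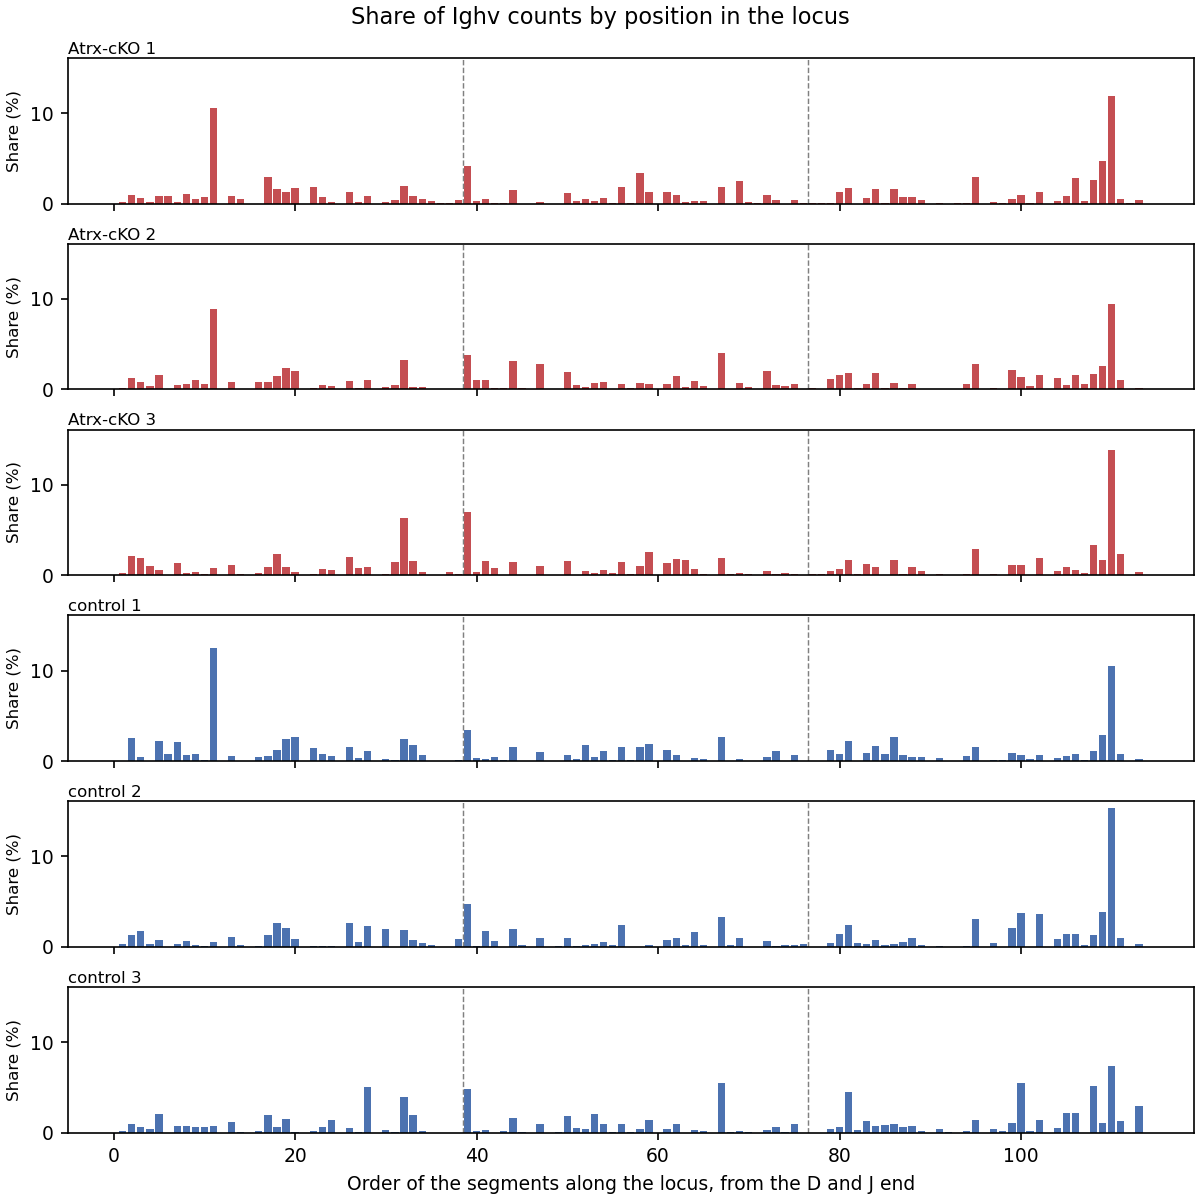
Share of *Ighv* counts (percent, vertical axis) of each of the 113 segments in their order along the locus, starting at the D and J end (horizontal axis), 1 panel per library, with dashed lines between the 3 groups of segments. The bar of *Ighv1-81* near the far end stands out in every library, and the bar of *Ighv5-9-1* near the D and J end stands out in Atrx-cKO 1, Atrx-cKO 2 and control 1.

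Distances in usage between libraries of the same genotype fell within the range of those between genotypes. The distance between a pair of libraries was the percentage of counts that would have to move to other segments to make their shares equal. It was 26.9% to 34.7% among Atrx-cKO libraries, 36.1% to 38.7% among control libraries and 24.1% to 40.4% between genotypes, with medians of 33.1%, 38.5% and 32.9%. The closest pair of all was Atrx-cKO 1 and control 1, and the farthest was Atrx-cKO 1 and control 3. The within-genotype coefficient of variation of CPM had a median of 56.4% over the 50 segments with at least 10 counts in every library. Over the 18536 genes of all kinds with that many counts the median was 12.7%. The segments also had lower counts than those genes, with a median CPM of 1.35 against 15.9, and the part of depth in this difference was not tested. The 54 kappa light chain (*Igkv*) segments with as many counts had a median of 52.6% at a median CPM of 1.32.

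Several segments were near absent in some libraries and well used in others. A gap of at least 4-fold in CPM between libraries next to each other in rank was found in 12 of the 74 segments with at least 30 counts in a library (16.2%), against 1.25% of the 19010 genes with such counts. This rule was made after the data were seen, and a library under 3 counts was set to 3. The part of depth in this contrast was not tested. The libraries above the gap came from both genotypes for 8 of the 12 segments. This was fixed in advance for some of the 12. *Ighv7-1*, *Ighv1-12* and *Ighv1-50* had 5 libraries above the gap, which must include both genotypes. *Ighv1-20*, *Ighv1-34* and *Ighv1-85* had 1, which can be of 1 genotype only. The strain origin of each mouse's heavy chain locus is not given in the sources used here, so a segment absent from a genome and a segment not used cannot be told apart. *Ighv2-4* had 64, 1 and 0 counts in Atrx-cKO 1, 2 and 3, and 69, 1 and 0 in control 1, 2 and 3. Its relative *Ighv2-2*, which is 98.03% identical, had 65, 57 and 138 counts in Atrx-cKO and 212, 64 and 42 in control libraries. *Ighv2-4* was thus high in 1 library of each genotype, and *Ighv2-2* was read in all 6. *Ighv14-1* was high in the same 2 libraries, with 133, 5 and 13 counts in Atrx-cKO and 123, 8 and 8 in control libraries. Other segments were high in a single library. *Ighv1-85* had 132 counts in control 3 and 9 to 25 elsewhere, *Ighv1-20* had 112 in Atrx-cKO 3 and 0 to 12 elsewhere, and *Ighv1-34* had 184 in Atrx-cKO 1 and 10 to 49 elsewhere. A single library could also be low. *Ighv7-1* had 2 counts in control 3 and 21 to 222 elsewhere, *Ighv1-12* had 2 in control 2 and 21 to 241 elsewhere, and *Ighv1-50* had 5 in Atrx-cKO 1 and 21 to 101 elsewhere. *Ighv13-2*, the only segment of its family, had 51, 40 and 31 counts in Atrx-cKO 3, control 1 and control 2 and 1 to 5 elsewhere, and *Ighv3-5* had 32 in Atrx-cKO 1, 42 in control 2 and 0 to 7 elsewhere. *Ighv1-56* had 1, 6 and 5 counts in Atrx-cKO and 64, 10 and 38 in control libraries, where its gap lay between control 2 and the other two controls.

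**Figure D4:**
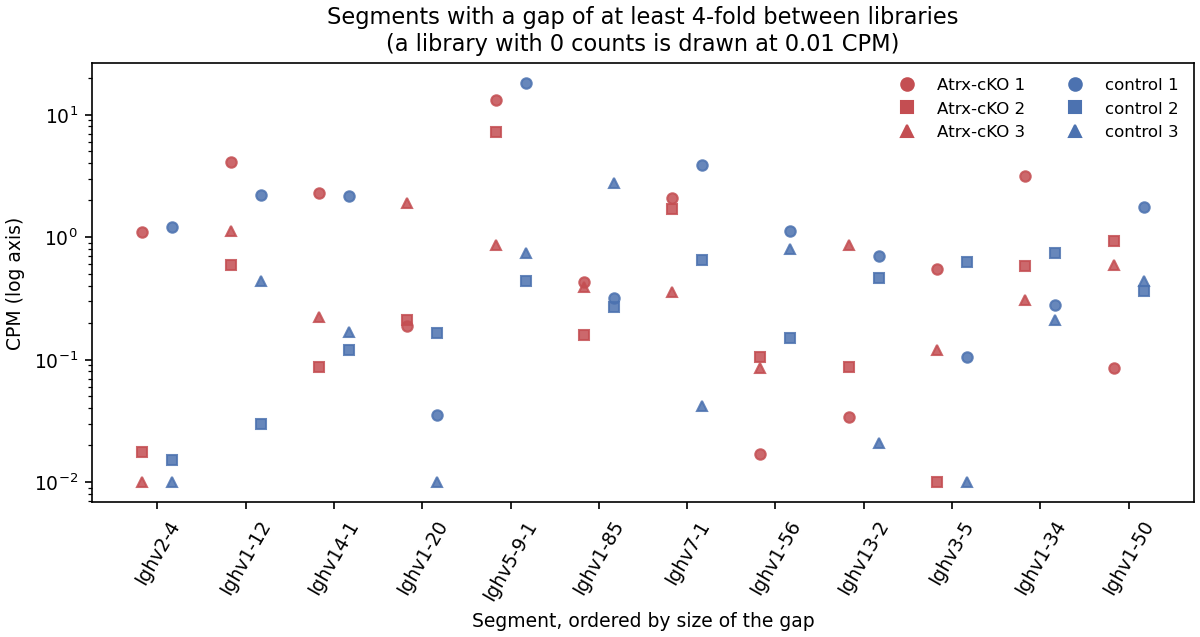
CPM (vertical axis, log scale, a library at 0 counts drawn at 0.01) of the 12 segments with a gap of at least 4-fold between libraries, ordered by the size of the gap, with 1 point per library (red Atrx-cKO, blue control, the shape giving the replicate). *Ighv2-4* and *Ighv14-1* each have their 2 high points in Atrx-cKO 1 and control 1.

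The summed level of the segments did not separate the genotypes. It was 123.9, 80.7 and 112.4 CPM in Atrx-cKO and 145.6, 73.3 and 92.2 CPM in control libraries, or 105.7 ± 22.4 and 103.7 ± 37.5 CPM (SD, n = 3 each). The *Igkv* segments summed to 131 ± 27.9 CPM in Atrx-cKO and 124 ± 36.6 CPM in control (SD, n = 3 each). *Ighv* CPM per 100 CPM of *Igkv* was 80.4, 80.7 and 81.1 in Atrx-cKO and 89.6, 81.8 and 76.6 in control libraries, so heavy and light chain reads went up and down together. Per 100 CPM of 8 heavy chain constant genes it was 16.6 ± 1.66 and 16.6 ± 1.90 (SD, n = 3 each). In whole tissue, fewer cells of a type and less RNA per cell cannot be told apart.

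No pathway list that serves the locus had a gene called between genotypes. A gene was called where edgeR's quasi-likelihood fit gave a Benjamini-Hochberg adjusted p below 0.05 and a fold change of 1 or more on the log2 scale in either direction, which 0.0145% of the 20636 genes tested met. The 8 constant genes had a median log2 fold change of 0.34 over the 7 tested, against 0.0050 over all genes. Among them *Ighm*, which encodes the mu chain of IgM, had 235 ± 19.3 and 254 ± 95.6 CPM in Atrx-cKO and control, *Igha* of IgA 167 ± 14.4 and 185 ± 38.7, and *Ighg2b* of IgG2b 95.03 ± 27.5 and 74.99 ± 36.8 (SD, n = 3 each). The 12 V(D)J recombination genes had a median log2 fold change of 0.070, and *Rag1*, the catalytic subunit of the recombinase, had 16.4, 34.0 and 35.1 CPM in Atrx-cKO and 39.7, 16.8 and 31.2 CPM in control libraries. The DNA-bending factors *Hmgb1* and *Hmgb2* had log2 fold changes of 0.07 and 0.23, and *Xrcc6*, the Ku70 subunit of end joining, 0.07. The 4 genes listed for the surrogate light chain, which pairs with the heavy chain in pre-B cells, had a median of 0.021. In that list *Vpreb3* was at 11.4 ± 1.65 and 11.3 ± 4.08, *Igll1* at 9.22 ± 3.46 and 9.07 ± 2.35, and *Vpreb1* at 5.95 ± 1.29 and 5.31 ± 1.32 CPM in Atrx-cKO and control (SD, n = 3 each). The 10 regulators of the locus and of V promoters had a median of 0.10, with *Ikzf1* at 0.16, *Yy1* at 0.04 and *Ctcf* at 0.04, and the 4 class switch genes 0.023, with *Msh6* at 0.08 and *Ung* at 0.02. Counts of called genes were 0 in each of the 5 lists, and 1 of their genes, *Ighg3* of the constant genes, had an unadjusted p under 0.05.

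Markers of the cells that carry joined segments overlapped between genotypes. The 12 B cell markers summed to 361, 382 and 442 CPM in Atrx-cKO and 462, 248 and 325 CPM in control libraries, and 10 plasma cell markers to 395 to 425 and 393 to 427 CPM. In the latter sum *Xbp1*, which many secretory cells express, made up 191 to 245 CPM. *Jchain*, which encodes the joining chain of IgM and IgA, had 61.9, 50.7 and 65.6 CPM in Atrx-cKO and 74.7, 46.1 and 53.8 CPM in control libraries, lowest and highest in the same libraries as the *Ighv* sum. No gene of either list was at 0 in all libraries or was called. The 8 T cell markers summed to 31.3, 30.6 and 34.3 CPM in Atrx-cKO and 39.2, 42.4 and 34.7 CPM in control libraries. Their separation came from *Cd3d*, a chain of the T cell receptor complex, and the other 7 markers summed to 26.9, 29.5 and 28.5 CPM and to 32.8, 32.7 and 25.9 CPM, with overlap. The 8 erythroid markers ranged over 3735 to 4850 and 2388 to 6189 CPM, and the 8 neutrophil markers over 8994 to 12745 and 7379 to 10576 CPM. Osteoblast and osteocyte markers of the labelled tissue, 8 in number, summed to 63029 to 63491 CPM in Atrx-cKO and 58646 to 99994 CPM in control libraries. The 8 skeletal muscle markers reached 13016 CPM in control 3, against 729 to 2427 CPM in the other 5 libraries. Control 3 was also the library with the highest *Ighv14-3*, *Ighv8-12* and *Ighv1-85* shares, and the part of tissue makeup in these was not tested.

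**Figure D5:**
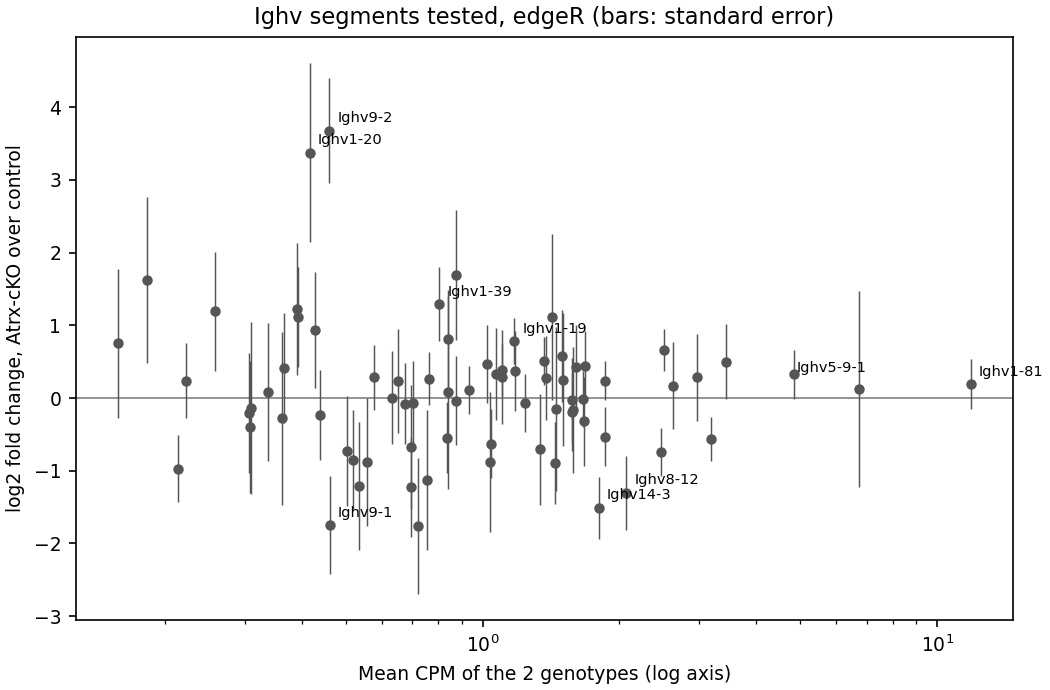
Fitted log2 fold change of Atrx-cKO over control (vertical axis, bars are standard errors) against mean CPM (horizontal axis, log scale) for the 76 segments tested with edgeR, 1 point per segment. The points lie on both sides of 0, from -1.76 to 3.67, with *Ighv9-2* and *Ighv1-20* highest.

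In the test across all genes, no segment was called higher or lower in Atrx-cKO. The edgeR fit kept 76 of the 113 segments, and the 37 below its expression filter had at most 69 counts in a library and 960 counts in all. The filter asked for 0.178 CPM in 3 libraries, and 3 of the 76 met it through 1 genotype alone, *Ighv9-2* and *Ighv1-20* through Atrx-cKO and *Ighv1-66* through control, so these had to differ and their fits are descriptions. The share called was 0 of 76, against 0.0145% of all genes, and the lowest adjusted p of a segment was 0.992. At an unadjusted p under 0.05, 4 segments were higher and 3 lower, which is 9.21% of the 76 against 3.64% of all genes tested (1.59% higher and 2.05% lower). *Ighv9-2* and *Ighv1-20* are 2 of the 4 higher ones, so this share is no support for a difference. The fold changes were positive for 41 segments and negative for 35, with a median log2 value of 0.10 against 0.0050 over all genes. The genotypes did not overlap in CPM for 7 of the 76, or 9.21%, against 8.31% of all genes. *Ighv9-2*, *Ighv1-20* and *Ighv1-66* are among these 7, and the filter fixed their separation. This share too is no support for a difference.

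*Ighv9-2* (ENSMUSG00000094102) had the largest fitted difference. Its counts were 32, 24 and 94 in Atrx-cKO and 6, 2 and 3 in control libraries, or 0.854 ± 0.645 and 0.0661 ± 0.0377 CPM (SD, n = 3 each). All 3 Atrx-cKO libraries lay above the controls. The log2 fold change was 3.67 with a standard error of 0.72 (edgeR, unadjusted p = 0.00110, adjusted p = 0.992 by Benjamini-Hochberg). The Wald test of DESeq2 gave 3.71 and an adjusted p of 0.00211, and *Ighv9-2* was the only one of 91 segments with an adjusted p that it called, where 0.0961% of all genes were called, 0.0418% higher and 0.0543% lower. The call, but not the size of the difference, was lost without some libraries. When 1 library at a time was dropped from the DESeq2 fit, an alternative chosen with the data in view, the adjusted p was 0.370 without Atrx-cKO 3 and 0.0966 without control 2, none was given without control 1, and it was 0.0102, 0.00258 and 0.0281 without Atrx-cKO 1, Atrx-cKO 2 and control 3. The log2 fold change in edgeR stayed between 2.85 and 4.20 with any 1 library left out. *Ighv9-2* is on the list of changed genes that the authors drew from these same libraries, so its difference is not independent evidence.

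Another 6 segments had an unadjusted p under 0.05. Of the higher ones, *Ighv1-20* had 11, 12 and 112 counts in Atrx-cKO and 2, 11 and 0 in control libraries, a log2 fold change of 3.37 with a standard error of 1.23 that rested largely on Atrx-cKO 3 and was 1.45 without it. *Ighv1-39* had 72, 96 and 30 counts in Atrx-cKO and 37, 31 and 13 in control libraries, a log2 fold change of 1.29 with a standard error of 0.51 and overlapping genotypes. *Ighv1-19* had 70, 67 and 122 against 56, 47 and 43 counts, a log2 fold change of 0.78 with a standard error of 0.31. These higher segments were all of *Ighv1*, the family with 53 of the segments, while the lower ones were each of a different family. Of the lower ones, *Ighv14-3* had 57, 46 and 60 counts in Atrx-cKO and 95, 115 and 220 in control libraries, a log2 fold change of -1.51 with a standard error of 0.43. *Ighv8-12* had 71, 61 and 76 against 58, 183 and 242 counts, a log2 fold change of -1.30 with a standard error of 0.51. *Ighv9-1*, the nearest relative of *Ighv9-2*, had 13, 14 and 10 against 22, 98 and 13 counts, a log2 fold change of -1.75 with a standard error of 0.67 that rested largely on control 2 and was -0.64 without it. The remaining *Ighv9* segment among the most used, *Ighv9-3*, had 138, 149 and 417 against 202, 92 and 173 counts, a log2 fold change of 0.50 with a standard error of 0.51. *Ighv1-81* had 860, 436 and 913 against 868, 748 and 322 counts, a log2 fold change of 0.19 with a standard error of 0.34, and *Ighv5-9-1* one of 0.12 with a standard error of 1.35.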

How the data were processed

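Polyadenylated RNA of 6 tibias (3 Atrx-cKO, 3 control) was sequenced as paired-end libraries of 150-base reads by GENEWIZ. The authors deposited raw counts per gene for each library, without normalization, and the counts were used as deposited. The aligner and counting program are not given in the sources used here, and the submitters' processing notes name GRCm38 and DESeq2. Summary entries (56.2% to 57.2% of each table, including reads with no unique alignment) were kept out of library sizes, which ranged from 50977777 to 70571655 counts. Of the 55401 identifiers, 55141 matched GENCODE M21, which gave gene types, positions and sequences. The kit is labelled strand specific, but how strand was counted is not given. One segment overlaps another gene, on the opposite strand.

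Counts of all genes were fitted with edgeR 4.0.16 (TMM, filterByExpr defaults, glmQLFit and glmQLFTest, genotype alone) in R 4.3.3, with Benjamini-Hochberg adjustment over the 20636 genes tested, and called at an adjusted p below 0.05 and a log2 fold change of 1 or more in either direction. Standard errors are the log2 fold change divided by the square root of F. DESeq2 1.42.0, other size factors and filters, a replicate block and leaving out each library were alternatives. Shares, effective numbers and locus groups are descriptions without a test. V exons were aligned with edlib 1.3.9.post1. On simulated counts for 20636 genes with 200 changed between the genotypes, edgeR recovered 194 with 7 false hits and DESeq2 193 with 26. A hit here was an adjusted p below 0.05 alone. The changed genes were drawn from well-counted genes and given large changes, with spread taken from the trend over all genes. The simulation therefore does not measure the power for *Ighv* segments, which had lower counts and a wider spread.

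Named segments were the 10 with the highest mean share per exonic kilobase, the top segment of each library, the most used of each family holding at least 5%, those with an unadjusted p under 0.05 and *Ighv9-2*. Up to 3 genes with the largest mean CPM were named per pathway list, and 1 of these is not reported here. The other segments, *Rag1*, *Ighg3*, *Cd3d*, *Xbp1* and *Jchain* were named after their values were seen, or because they are the nearest relative. The segments and lists were chosen with earlier results of these data known.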

Additional observations from a re-analysis of the deposited data

How the results depend on the processing

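No segment was called by edgeR under any planned setting, and DESeq2 called 1 segment higher, *Ighv9-2*. With 1 library at a time left out of DESeq2, an alternative chosen after seeing the data, the count called higher was 0 to 1 and the count called lower 0 to 2. The lower calls were *Ighv8-12* and *Ighv14-3* without control 1 and *Ighv1-56* without control 2, and the cause was not tested. The edgeR log2 fold change changed sign when 1 library was left out for 7 named segments, all with an adjusted p of 0.98 or more. It ran from -0.22 to 1.06 for *Ighv1-78*, from -0.44 to 0.76 for *Ighv1-80*, from -0.082 to 0.48 for *Ighv1-81*, from -0.77 to 0.018 for *Ighv2-9*, from -0.065 to 0.60 for *Ighv3-6*, from -0.69 to 3.60 for *Ighv5-9-1* and from -0.20 to 0.77 for *Ighv9-3*. For *Ighv9-2* it stayed between 2.85 and 4.20. At an unadjusted p under 0.05, the 4 higher and 3 lower segments became 8 and 9 without a filter on low counts, 8 and 8 with DESeq2, 2 higher with at least 10 counts in every library, 7 and 5 without control 1, 11 lower without control 2 and 2 higher without control 3.

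Replicate numbers showed no pairing over all genes tested. Deviations of log CPM from the genotype means had correlations of -0.025, 0.062 and -0.071 between same-numbered libraries. This measure cannot show whether mice were matched, for example by litter. With the replicate block 0 segments were called, and *Ighv9-2* had a log2 fold change of 3.50 with an adjusted p of 0.788 (edgeR). The mean of the log2 total *Ighv* level differed by 0.063 between genotypes, as without the block. The log2 ratio of the mean totals was 0.027. The total *Ighv* level differed by -0.17 to 0.34 on the log2 scale over all settings. The difference in the *Ighv5* share, 2.03 percentage points, ran from -0.16 to 6.23 when 1 library was left out, highest without control 1, and was 0.047 without *Ighv5-9-1*. Low counts limit single segments, and at most 8306 reads of a library carry all shares.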

Other observations

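The *Ighv* pseudogenes, outside the shares above, held 60, 83 and 75 counts in Atrx-cKO and 119, 134 and 59 in control libraries. That is 0.822% to 2.67% of the counts on segments and pseudogenes together.

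*Ighg3*, the constant gene of IgG3, was read mainly in 1 library. It had 24.6, 0.928 and 1.63 CPM in Atrx-cKO and 2.12, 0.405 and 0.693 CPM in control libraries. Its log2 fold change was 3.08 with a standard error of 1.27, and the genotypes overlapped.

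The *Igkv* segments gave distances between libraries much like those of the *Ighv* segments. The distances were 27.8% to 33.9% among Atrx-cKO, 30.4% to 36.9% among control and 27.9% to 42.5% between genotypes. Atrx-cKO 1 and control 1, the closest pair in *Ighv* usage at 24.1%, were the closest pair between genotypes in *Igkv* usage as well, at 27.9%, while Atrx-cKO 1 and control 3 were the farthest in both. The sources used here do not say whether these mice shared a litter.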
